A study of Mus musculus with 2 samples.

Results

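The Reg genes encode small secreted C-type lectins of the gut epithelium and pancreas. They were identified as the probes for Reg1, Reg2, Reg3a, Reg3b, Reg3d, Reg3g and Reg4 that are not array controls: 7 of the 27615 gene names on the array, each with 1 probe on 1 spot. Probes of 6 of the 7 were well above background in at least 1 diet on both arrays, against 17170 genes in all. The family was selected on measured values, since its members had been seen to lie on opposite sides of no difference. The ratios below are therefore a description, without a test.

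Small-intestinal total RNA of C57BL/6 mice at an age of 6 to 8 weeks was labelled for 2 diets. The Conv group ate a conventional chow (LASQCdietRod16), and the FAF group had been held for up to 5 generations on a food antigen-free diet with amino acids. The labels speak of both specific pathogen-free (SPF) and germ-free (GF) animals without saying which gave this RNA, so diet and microbial status cannot be told apart. They do not say whether an RNA came from 1 mouse or a pool, or which stretch of the small intestine it came from. The same 2 RNAs were hybridised to 2 two-colour Agilent arrays with the dyes exchanged: FAF RNA carried Cy5 on array 1 and Cy3 on array 2. With 1 RNA sample per diet, no difference between diets has a replicate check, and no p-value can be given. The value after ± is the distance of each array from the mean of both, which covers labelling and hybridisation error alone.

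Reg proteins carry a C-type lectin fold behind a signal peptide and are released into the gut lumen or pancreatic juice. Reg3b and Reg3g are antibacterial: Reg3g binds peptidoglycan and acts on Gram-positive bacteria near the epithelium, and Reg3b acts mainly on Gram-negative ones. Both are known to be induced in enterocytes and Paneth cells by colonisation, through MyD88 signalling and through the cytokine IL-22 from innate lymphoid cells acting on STAT3. Mouse Reg3a is a separate family member. Human REG3A, despite its name, is the functional counterpart of mouse Reg3g. Reg1 and Reg2 are lithostathines best known from the exocrine pancreas, Reg3d is known from the islets and pancreas, and Reg4 is a more distant member found in enteroendocrine and goblet cells.

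The first 30 of the 60 bases of each probe are shown, because opposite ratios within a family of related genes depend on the probes being distinct.
Reg3b probe: gtgaagactcacctagaaaaagcattttct
Reg3g probe: gagtacagaattgacatcatgggttgatat
Reg3a probe: cccatgacaagggatgaaatacaagaattc
Reg3d probe: ggccagttctgatttcaactgcctgaaagt
Reg1 probe: ggaccatctatcaaaagcaaattagatcct
Reg2 probe: acagtactcctttgtctgcaagttcagagc
Reg4 probe: gcattgcgctgagatgaaccccaaggataa
No longer stretch than 8 bases was common to any pair over the full 60 bases, and the longest run shared by each of the 21 pairs was 5 to 8 bases. Aligned base for base, without gaps, 9 to 27 of the 60 positions were identical. No other probe of the array held any run of 15 bases of a Reg probe on the same strand. On the opposite strand, the Reg4 probe shared 15 bases with 2 probes of Ctnnbl1. Each probe was assigned 4 accessions by the array's design, and none of those was listed for another probe. Binding of a probe to the full transcript of another Reg gene was not tested, since whole transcripts were not used here.

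Reg3g and Reg3b were lower on the FAF diet and Reg3a was higher. Reg3g was 7.52-fold lower, Reg3b was 5.99-fold lower and Reg3a was 3.51-fold higher, while Reg4, Reg3d and Reg1 lay within 1.4-fold of no difference and the Reg2 signal was too near background to be measured. Under the rule of size used throughout (a mean difference of at least 2-fold, and at least 1.5-fold in the same direction on each array), 1 of the 6 measured members was higher in FAF, 2 were lower and 3 did not pass. Over all 17170 measured genes, 1.53% passed as higher and 0.879% as lower. Because the family was chosen on this contrast, nothing is read from that comparison. The family median was 0.21 on the log2 scale, beside 0.00 over all genes, and its members ranged from -2.91 to 1.81.

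**Figure D1:**
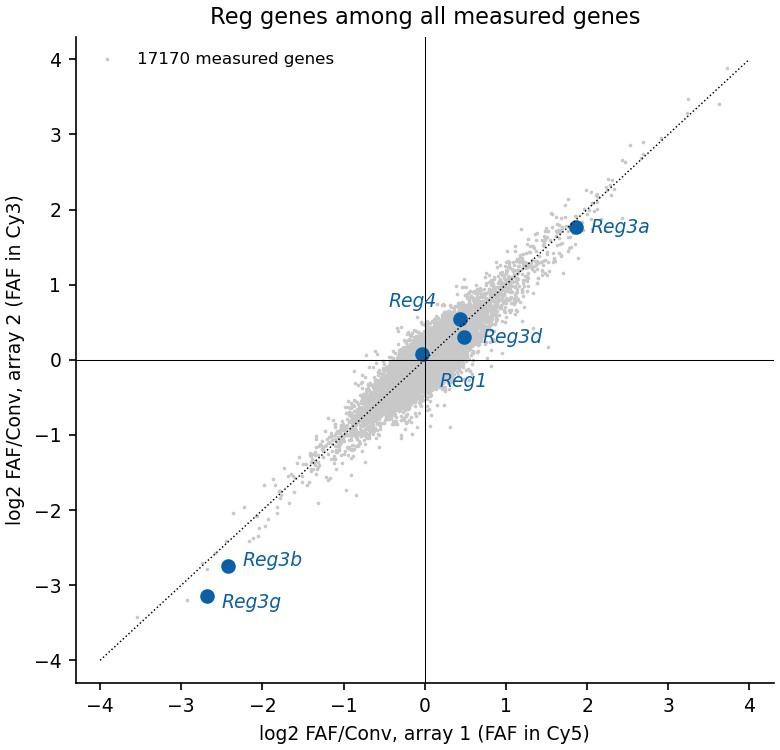
Log2 FAF over Conv ratio on array 1 (x axis) against array 2 (y axis), both turned to the same direction, for 17170 measured genes (grey) and the 6 measured Reg genes (blue); the dotted line marks equal values. Reg3g and Reg3b sit at the lower left and Reg3a at the upper right, with Reg4, Reg3d and Reg1 near the origin.

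Reg3g, the peptidoglycan-binding lectin, was bright in Conv RNA on both arrays. Its raw spot signal was 84589 in Conv (Cy3) and 43343 in FAF (Cy5) on array 1, and 249454 in Conv (Cy5) and 9966 in FAF (Cy3) on array 2. The Cy5 channel was brighter in general, so raw signals compare within a dye: Conv exceeded FAF in Cy3 and in Cy5 alike. After normalisation the levels were 17.26 and 17.13 in Conv and 14.59 and 13.99 in FAF (log2 intensity, arrays 1 and 2), so the diets did not overlap. The log2 ratio of FAF over Conv was -2.68 on array 1 and -3.14 on array 2, with a mean of -2.91 ± 0.23. That mean was rank 3 from the lowest of all measured genes.

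Reg3b, which acts on Gram-negative bacteria, followed the same course at a slightly smaller size. Its raw signal was 85862 in Conv and 52709 in FAF on array 1, and 256514 in Conv and 13407 in FAF on array 2. The normalised levels were 17.31 and 17.17 in Conv and 14.89 and 14.43 in FAF (log2 intensity), again without overlap. The log2 ratio was -2.42 on array 1 and -2.74 on array 2, with a mean of -2.58 ± 0.16, which was rank 6 from the lowest. The ratio of Reg3g lay below that of Reg3b by 0.26 on array 1 and by 0.40 on array 2 (log2). This gap, with a mean of 0.33 or 1.26-fold, thus had the same sign on both arrays. It was smaller than the distance between the 2 arrays for Reg3g, and the ranges of both genes overlapped. Both genes shifted the same way between the arrays, so the difference within each array is the closer comparison.

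Both genes were near the top of the measurable range in Conv. On array 1, 6 other spots were brighter than Reg3b in the Conv channel, and on array 2 the number was 14. For Reg3g the numbers were 7 and 16. No spot on either array was saturated, and the brightest Cy5 spots reached 316000 and 409559.

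Reg3a, which lies between these genes on the chromosome, went the other way. Its raw signal was 6038 in Conv (Cy3) and 69439 in FAF (Cy5) on array 1, and 21370 in Conv (Cy5) and 26917 in FAF (Cy3) on array 2. The normalised levels were 13.44 and 13.61 in Conv and 15.3 and 15.38 in FAF (log2 intensity), and the diets did not overlap. The log2 ratio was 1.86 on array 1 and 1.77 on array 2, with a mean of 1.81 ± 0.04, at rank 44 from the highest. The fold difference was 3.62 on array 1 and 3.41 on array 2. The difference between the log2 ratios of Reg3a and Reg3b was 4.28 on array 1 and 4.51 on array 2, a mean of 4.40 or 21.1-fold. Against Reg3g it was 4.53 and 4.91, a mean of 4.72 or 26.4-fold, many times the distance between the arrays for any of the 3 genes.

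**Figure D2:**
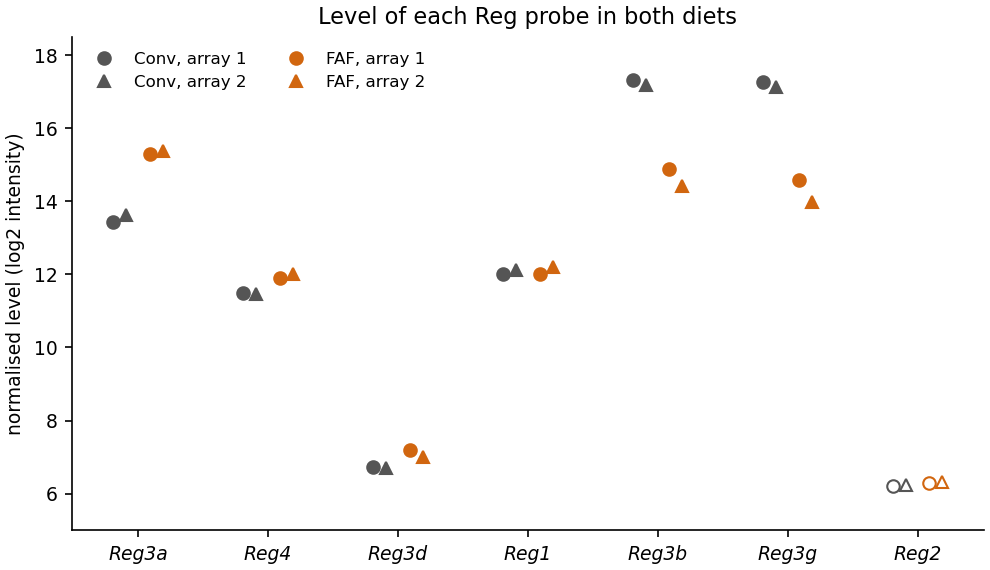
Normalised level (log2 intensity) of each Reg probe in Conv (grey) and FAF (orange) on array 1 (circles) and array 2 (triangles); open symbols were not well above background. Levels compare between diets within a gene and not between genes, and the diets are apart for Reg3a, Reg3b and Reg3g.

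Reg4, the member expressed in enteroendocrine and goblet cells, was slightly higher in FAF and did not pass the rule. Its raw signal was 1594 in Conv and 6488 in FAF on array 1, and 4523 in Conv and 2672 in FAF on array 2. The normalised levels were 11.48 and 11.47 in Conv and 11.91 and 12.01 in FAF. The log2 ratio was 0.43 on array 1 and 0.54 on array 2, a mean of 0.48 ± 0.05 or 1.4-fold. The FAF levels lay above the Conv levels on both arrays, at rank 1136 from the highest of all genes.

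Reg3d, the islet-associated member, was well above background but dim. Its raw signal was 42.4 in Conv over a local background of 15, and 212 in FAF over 74, on array 1. On array 2 it was 137 in Conv over 68 and 69.2 in FAF over 17. The log2 ratio was 0.48 and 0.31, with a mean of 0.39 ± 0.08 or 1.31-fold, and did not pass. The value depended on how background was treated: with the scanner software's own log ratio it was 1.35 and 0.78, a mean of 1.06, which is 2.09-fold and passes the rule. Reg3d was above 0 on both arrays under either treatment.

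Reg1, a lithostathine, did not differ between diets beyond the distance of the arrays. Its raw signal was 2330 in Conv and 6941 in FAF on array 1, and 7146 in Conv and 3025 in FAF on array 2. The log2 ratio was -0.03 on array 1 and 0.08 on array 2, a mean of 0.03 ± 0.05, so the arrays differed in sign. Reg2, the other lithostathine, was at or near background: no channel of either array called it well above background. Its signal was 28.3 and 99.3 on array 1, over backgrounds of 16 and 69, and 89.8 and 36.2 on array 2, over 64 and 17, with Conv first each time. No fold is given for it.

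By log2 ratio, the order was Reg3a, Reg4, Reg3d, Reg1, Reg3b and Reg3g. The neighbours Reg4 and Reg3d changed places between the arrays, with a difference of 0.05 on array 1 and -0.23 on array 2 (Reg3d minus Reg4), and are not separated. Reg3a stood above Reg4 by 1.43 and 1.23, and Reg1 stood above Reg3b by 2.40 and 2.82, so these are the wide steps in the order.

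The genes with ratios nearest to those of Reg3a over the 2 arrays were Ephx2, an epoxide hydrolase, at 1.80 ± 0.05, Ccl24, an eosinophil-attracting chemokine, at 1.83 ± 0.03, and Abcb1a, a drug efflux pump, at 1.80 ± 0.02. Their distances from Reg3a were 0.021, 0.029 and 0.047 in log2. Leaving out Reg3b, the genes nearest to Reg3g were Plb1, a phospholipase, at -3.06 ± 0.13, Ubd, the ubiquitin-like modifier FAT10, at -2.73 ± 0.05, and Cfd, complement factor D, at -2.72 ± 0.02. Their distances were larger, at 0.257, 0.357 and 0.451, since few genes reach such ratios. Likeness over 2 arrays of the same RNAs describes these values and no more.

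The probes of 6 Reg genes lie within 93.2 kb of mouse chromosome 6, and those of Reg4 lie on chromosome 3. In the array design's coordinates (mm9), the order is Reg3b at chr6:78323323-78323382 on the plus strand, Reg3d at chr6:78326006-78326065 on the minus strand, Reg3a at chr6:78333635-78333694, Reg2 at chr6:78357959-78358018 and Reg1 at chr6:78378527-78378586 on the plus strand, and Reg3g at chr6:78416420-78416479 on the minus strand. The Reg4 probe covers chr3:98037005-98040251 on the plus strand, a span longer than the probe, so it crosses an intron. Whether the other probes lie in coding or untranslated exons was not analysed here.

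The 2 genes that were lower in FAF stood at the ends of the cluster. Reg3a, the one that was higher, lay 10.3 kb from Reg3b at 1.81, and Reg3d lay between them, 2.7 kb from Reg3b, at 0.39. The ratios were not ordered by strand either: Reg3b and Reg3a lie on the same strand and Reg3g on the other. Within 1 Mb, the other probes were those of Ctnna2 and 6330415B21Rik, 773.5 and 992.7 kb away, and neither was well above background.

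**Figure D3:**
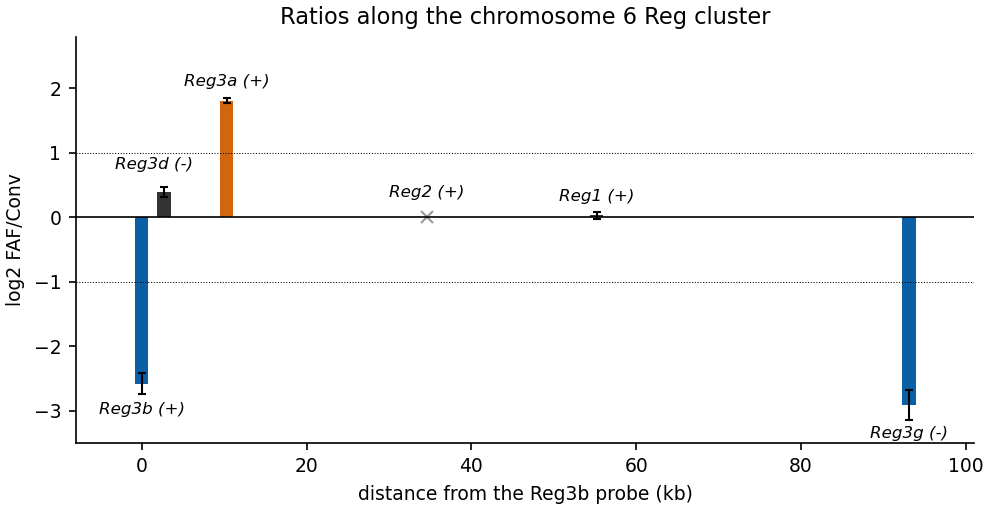
Mean log2 FAF over Conv ratio (y axis) of the 6 Reg probes on chromosome 6 against distance from the Reg3b probe in kb (x axis); whiskers span the 2 arrays, dotted lines mark 2-fold, the strand is in brackets and the cross marks Reg2, which was not measured. Reg3b and Reg3g at the ends are at -2.58 and -2.91, and Reg3a between them is at 1.81.

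Around Reg4, 17 genes within 1 Mb were measured, of which 3 were higher and 1 was lower by the rule. The higher ones were the steroid dehydrogenase genes Hsd3b2 at 1.19 ± 0.10 and Hsd3b3 at 1.21 ± 0.01 and the monooxygenase gene Fmo5 at 1.23 ± 0.00. The lower one was Phgdh, the first enzyme of serine synthesis, at -1.17 ± 0.09. Other probes of these genes gave 0.60 for Hsd3b2, 0.97 and 1.23 for Fmo5, and -1.05 and -0.77 for Phgdh. Other measured neighbours were Hsd3b6 at 0.38 ± 0.03, Pde4dip at 0.29 ± 0.03, Sec22b at 0.07 ± 0.07, Hsd3b4 at -0.02 ± 0.02, Prkab2 at -0.09 ± 0.03, 9230110I02Rik at -0.12 ± 0.05, Wars2 at -0.17 ± 0.00, Notch2 at -0.23 ± 0.05, Chd1l at -0.33 ± 0.00, Zfp697 at -0.79 ± 0.16, and the unnamed transcripts NAP071090-1 at -0.12 ± 0.19 and TC1677245 at -0.23 ± 0.19. Thus Reg4, at 0.48, lay among neighbours of both directions.

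The sequences before the start sites of Reg3b, Reg3g and Reg3a are shown because Reg3b and Reg3g went one way and Reg3a the other; these 3 were picked after their values were seen. Each is the 250 bases upstream of the RefSeq start, in GRCm38.p6 coordinates, which differ from those of the probes, and is read 5′ to 3′ on the gene's strand. Capitals mark runs of at least 10 bases found in at least 1 of the other 2. The positions are chr6:78370635-78370884 (plus) for Reg3b, chr6:78468875-78469124 (minus) for Reg3g and chr6:78380459-78380708 (plus) for Reg3a.
Reg3b upstream: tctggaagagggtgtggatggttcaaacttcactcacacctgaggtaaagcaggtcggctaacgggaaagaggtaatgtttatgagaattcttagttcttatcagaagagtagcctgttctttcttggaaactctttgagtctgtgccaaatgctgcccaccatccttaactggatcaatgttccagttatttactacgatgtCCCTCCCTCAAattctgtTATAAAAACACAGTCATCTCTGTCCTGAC
Reg3g upstream: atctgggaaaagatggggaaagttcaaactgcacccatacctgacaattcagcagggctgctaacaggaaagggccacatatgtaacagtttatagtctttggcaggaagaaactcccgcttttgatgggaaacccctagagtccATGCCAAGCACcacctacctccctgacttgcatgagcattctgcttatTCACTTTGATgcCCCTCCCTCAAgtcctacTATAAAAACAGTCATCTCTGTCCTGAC
Reg3a upstream: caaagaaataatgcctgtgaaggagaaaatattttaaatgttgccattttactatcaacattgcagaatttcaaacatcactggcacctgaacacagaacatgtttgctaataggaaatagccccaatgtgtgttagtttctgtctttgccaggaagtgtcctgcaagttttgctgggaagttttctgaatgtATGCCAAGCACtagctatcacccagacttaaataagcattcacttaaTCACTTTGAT
Reg3b and Reg3g were identical at 177 bases of a gapped alignment, or 70.8%, and shared a run of 20 bases that reaches the start site. The other 20 pairs among the 7 genes reached 56.8% to 64.8%, with longest shared runs of 6 to 12 bases. Reg3a was identical to Reg3g at 61.6% and to Reg3b at 59.2%. The run shared by Reg3b and Reg3g, extended past the start, was 29 bases long. In Reg3a, 10 bases of it (TGTCCTGACA) began 38 bases after the annotated start, while in Reg3b the same letters began 9 bases before it. The 3 windows are therefore not in register, and the Reg3a start is annotated further upstream of the shared stretch. Within the 250-base windows as printed, which end at the start, the longest run found in all 3 was 7 bases.

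Of the motifs searched in the 250-base windows on both strands, the TATA box letters TATAAA occurred in 4 of the 7 Reg genes and in 12.4% of 32851 promoters. They began 29 bases before the start in Reg3b, 27 in Reg3g and 30 in both Reg1 and Reg2, and were not in the Reg3a, Reg3d or Reg4 window; the Reg3a window ends before the shared stretch. Reg3g had a further match on the opposite strand 161 bases before the start. The letters TTCNNNGAA, the core bound by STAT factors, occurred in Reg3b (ttcttggaa, 129 bases before the start) and in Reg3d 238 bases before it, and in 7.02% of all promoters. They were not in the Reg3g window.

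The genes that act upstream of Reg3b and Reg3g were described from lists of ligands, receptors and signalling genes. Of 13 cytokine ligands, 5 were measured, and none passed the rule, with a median of 0.44. The highest were Il33, an alarmin, at 0.92 ± 0.18, and Il18, at 0.66 ± 0.04. Il22 itself was not well above background, and neither were Il23a, Il12b, Il17a, Il6, Osm, Il10 and Il25.

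Of 16 receptors and microbial sensors, 15 were measured and 1 was lower: Cd14, the lipopolysaccharide co-receptor, at -1.08 ± 0.06. The list's median was 0.05. Tlr2, which senses bacterial lipoproteins, was at -0.78 ± 0.00, and the IL-22 receptor chain Il10rb was at 0.68 ± 0.00. The other chain, Il22ra1, was not well above background.

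All 13 signalling and feedback genes were measured, 1 was lower and the median was -0.13. That gene was Nfkbiz, a nuclear regulator of NF-kB target genes, at -1.04 ± 0.03. The adaptor Myd88 was at -0.19 ± 0.04 and Stat3 at -0.27 ± 0.06. A second Stat3 probe gave 0.17, so the direction of Stat3 depended on the probe. Socs3, a feedback inhibitor induced by STAT3, was at 0.00 ± 0.00, and its other probe gave 0.12. Of 10 markers of innate lymphoid and other IL-22 producing cells, 8 were measured and none passed, with a median of 0.07. Ahr, a receptor for dietary ligands, was at 0.45 ± 0.01.

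Other epithelial genes known to be induced by microbes or IL-22 were mostly below 0. Of 20, 16 were measured, 6 were lower and none was higher, with a median of -0.89 and a range of -2.58 to 0.62. Nos2 and Retnlb were not well above background in FAF, and Lcn2 was so there on 1 array only. These counted as measured through Conv alone, so nothing is read from their place below 0. The 6 that were lower were well above background in both diets. Pla2g5, a secreted phospholipase, was at -2.58 ± 0.01, Duoxa2, the maturation factor of a hydrogen peroxide-producing oxidase, at -2.43 ± 0.02, and the serum amyloids Saa2 and Saa1 at -2.03 ± 0.10 and -1.78 ± 0.01. A second Saa1 probe gave -2.12. The 2 measured members above 0 were Duox2, the oxidase itself, at 0.32 ± 0.03, and Sprr1a at 0.62 ± 0.08. Pla2g5 thus had the same mean ratio as Reg3b to 2 decimals. The list and its members were compiled with results of these RNAs known, so its direction is not independent of theirs.

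Markers of the cells that make Reg proteins also differed between the diets, and their part in the Reg ratios was not tested. In whole tissue, fewer cells of a type and less RNA per cell cannot be told apart. Of the 10 Paneth cell markers on the array, all 10 were measured and below 0, with 5 lower by the rule, a median of -0.96 and a range of -1.77 to -0.45. Their summed level was 931930 and 1012377 in Conv and 561692 and 423940 in FAF (normalised intensity, arrays 1 and 2). Mptx1, a Paneth cell pentraxin, was at -1.77 ± 0.02, and the defensins Defa21, Defa20 and Defa22 were at -1.61 ± 0.30, -1.33 ± 0.48 and -1.13 ± 0.01. Defensin genes are close copies, so their probes may read several of them. Lyz1, the Paneth cell lysozyme, was at -0.45 ± 0.18. Reg3g and Reg3b were thus lower than each of the 10 Paneth markers, and Reg3a was above all of them.

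Absorptive enterocyte markers lay on the other side. All 15 were measured, 6 were higher and none was lower, with a median of 0.82. Their summed level was 479489 and 583412 in Conv and 1015238 and 1101246 in FAF. Apoa4, an apolipoprotein of fat absorption, was at 2.71 ± 0.03, and Fabp1, a fatty acid-binding protein, was at 2.02 ± 0.14. Sis, sucrase-isomaltase, was at 1.70 ± 0.07 and Lct, lactase, at 1.62 ± 0.26. Of 11 markers of the proximal small intestine, which share Apoa4, Fabp1 and Lct with the enterocyte list, 5 were higher and the median was 0.62. Cyp2b10, a cytochrome P450, was at 1.97 ± 0.03. The summed level of this list was 107848 and 146335 in Conv and 392094 and 456945 in FAF. Of 9 distal markers, 7 were measured and 1 was higher (Cubn at 2.16 ± 0.27), with a median of 0.04 and summed levels of 69839 and 77623 in Conv and 96693 and 92558 in FAF. In neither diet were the defining ileal genes Fabp6 and Fgf15 well above background. Of 7 colon markers, 5 were measured, none passed, and the median was 0.04. The one of largest ratio was Car4, a carbonic anhydrase, at -0.24 ± 0.05, and the colon transcription factors Hoxb13 and Hoxd13 were not measured.

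For Reg4, the goblet and enteroendocrine lists bear on its known cell types. Of 11 goblet cell markers, 2 were lower (Spink4 at -1.23 ± 0.03 and Agr2 at -1.05 ± 0.02) and the median was -0.24, with summed levels of 431822 and 470018 in Conv and 407302 and 362708 in FAF. Of 16 enteroendocrine markers, 2 were higher (Nts at 1.41 ± 0.07 and Gip at 1.02 ± 0.02) and the median was 0.33, with summed levels of 56699 and 58876 in Conv and 84952 and 84456 in FAF. Retnlb, on the goblet list, was well above background in Conv alone and entered that list's median and sums through Conv. Reg4, at 0.48, was above both medians.

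Pancreatic markers are given beside Reg1, Reg2 and Reg3d, which are known from the pancreas, and their part in those ratios was not tested. Of 21 exocrine markers on the array, 16 were measured, 1 was higher and the median was 0.06. That gene was Sycn, a zymogen granule protein, at 1.28 ± 0.01. The defining enzymes Prss2, Cela2a, Amy2a5 and Pnlip and the transcription factor Ptf1a were not measured. The summed level of the measured ones was 82462 and 95583 in Conv and 110517 and 118229 in FAF. Cela3b and Cpa1 were not well above background in Conv, and Ctrc and Rbpjl were so there on 1 array only. These exocrine genes counted as measured through FAF alone, so nothing is read from the exocrine count, median and sums. Sycn was well above background in both diets. None of the 3 endocrine markers on the array, Ins1, Ins2 and Ppy, was well above background. Of 10 stomach markers, 6 were measured and 2 were higher, with a median of 0.66 and summed levels of 691 and 619 in Conv and 1201 and 1078 in FAF. These were Gkn2, at least 2.5-fold higher in FAF, and Tff1, at least 2.44-fold higher, neither of them well above background in Conv. The bound is taken against the lowest signal that counted as well above background. In Conv, Cblif was not well above background either, and Muc5ac was so on 1 array only. Gkn2, Tff1, Cblif and Muc5ac thus counted as measured through FAF alone, so nothing is read from this list's count, median and sums. Gkn3 at 0.99 ± 0.02 and Atp4b at -0.18 ± 0.03 were well above background in both diets.

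Among other lectins, none passed the rule. Of 14 secreted or epithelial lectins, 11 were measured, with a median of -0.09 and a range of -0.93 to 0.58. The lowest were Lgals1, a galectin, at -0.93 ± 0.08, and another galectin, Lgals9, at -0.76 ± 0.00. Itln1, a Paneth and goblet cell lectin that binds microbial sugars, was at -0.68 ± 0.10. Extl3, an exostosin-like enzyme proposed as a receptor for Reg proteins, was at -0.13 ± 0.10, and its other probe gave -0.03.

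**Figure D4:**
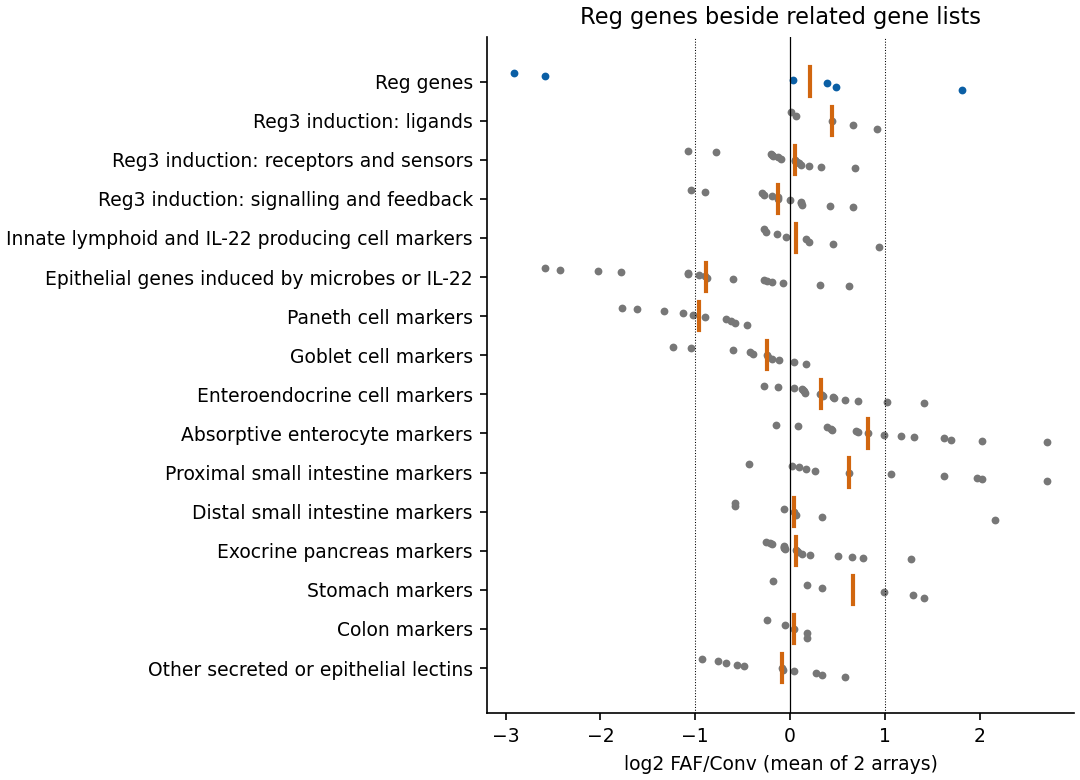
Mean log2 FAF over Conv ratio of each measured gene (points) for the 6 measured Reg genes (blue) and related gene lists (grey); orange bars are medians and dotted lines mark 2-fold. The Reg genes reach from -2.91 to 1.81, the Paneth list lies wholly below 0 with a median of -0.96, and the enterocyte list has a median of 0.82.

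Over the whole array, the log2 ratio ranged from -3.48 to 3.81 around a median of 0.00, and 97.6% of measured genes lay within 1 of it. The distance of each array from their mean had a median of 0.06 and a 90th percentile of 0.14 over all measured genes. Reg3g, at 0.23, and Reg3b, at 0.16, exceeded that percentile, and Reg3a, Reg4, Reg3d and Reg1 did not. Without turning the ratios for the dye exchange, no gene passed the rule. All 15 enterocyte markers were measured, as the labelled tissue would have them, while the ileal Fabp6 and Fgf15 were not.

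Processing hardly moved the 3 members that passed. With both arrays kept, the mean log2 ratio stayed at -2.92 to -2.87 for Reg3g. For Reg3b it was -2.60 to -2.53, and for Reg3a 1.81 to 1.83. The 11 other settings also included leaving out either array, which gives the ratio of the array that is kept. Those single arrays set the full range: -3.14 to -2.68 for Reg3g, -2.74 to -2.42 for Reg3b and 1.77 to 1.86 for Reg3a. None of the 3 left the rule. Some of the 11 settings could not move a Reg ratio. Each Reg gene has 1 probe, so averaging over probes or changing the filter returns the same ratio. The deposited value table repeats the software log ratio. Reg4 ran from 0.43 to 0.54 and Reg1 from -0.03 to 0.08, again the values of the single arrays. Reg3d ran from 0.31, on array 2 alone, to 1.06 with the software log ratio. With each array centred on its median in place of an intensity-dependent curve, the arrays moved apart and their means stayed: Reg3a was at 2.72 and 0.94, Reg3b at -1.51 and -3.65, and Reg3g at -1.77 and -4.03.

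**Figure D5:**
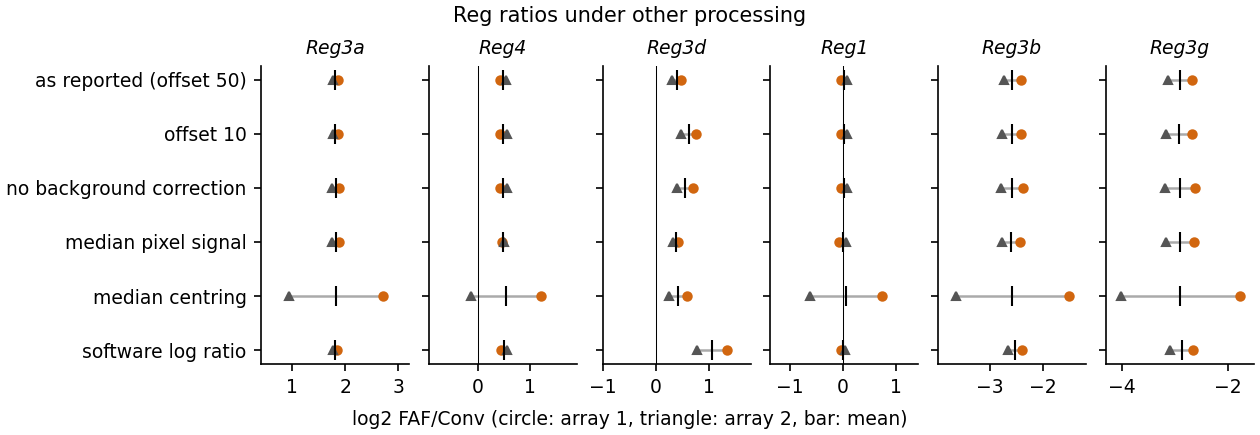
Log2 FAF over Conv ratio of the 6 measured Reg genes (panels) under 6 ways of processing (rows): circles are array 1, triangles array 2 and bars their mean; each panel spans the same width. Means stay in place for Reg3a, Reg4, Reg1, Reg3b and Reg3g, while Reg3d goes from 0.39 to 1.06 with the software log ratio, and median centring sets the 2 arrays apart.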

How the data were processed

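RNA was compared on 2 Agilent arrays, a dye exchange of the same 2 RNAs and so 1 sample per diet. Per the file headers, Agilent Feature Extraction 11.5.1.1 gave the deposited intensity of each spot as a mean and median pixel signal with a local background, a background-corrected and dye-normalised log10 ratio of Cy5 over Cy3, and a p-value of that ratio, which was not used. Probe coordinates in the files are those of mm9. The deposited value table held the same log10 ratios and is not turned for the dye exchange.

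From the mean signals, background was corrected with normexp (offset 50) and dyes with loess in limma 3.58.1 (R 4.3.3), with control spots at weight 0 and 192 spots with outlier flags left out of 43379. Ratios were turned to log2 FAF over Conv and averaged. Levels were set on a common scale with Aquantile. A probe was measured if well above background in at least 1 diet on both arrays (25449 of 41174). A list member well above background in 1 diet alone thus entered its list's count, median and sums through that diet. A gene took its brightest probe. Of the probes, 27662 were named through RefSeq tables (GRCm38.p6) and 13503 kept the file's name. All 7 Reg genes matched a promoter there.

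No test was run. Members and lists were chosen with earlier results of these data known. All 7 members were described. From each list, up to 4 members that passed the rule of size, or otherwise the 2 of largest ratio, were named, as were measured genes within 1 Mb of a Reg probe and the 3 genes of nearest ratio; Tlr2, Il10rb, Myd88, Stat3, Socs3, Lyz1 and Itln1 were named for their role after their values were seen. The values of 2 genes that this rule would name are not reported here. Scripts were tested on simulated ratios. With 2 arrays, their number limits the precision. The alternatives were other background, normalisation, filter, probe and fold rules, and leaving out either array.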

Additional observations from a re-analysis of the deposited data

How the results depend on the processing

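Under 13 alternatives, Reg3b and Reg3g were lower in FAF by the rule of size in each, and no measured member that passed changed direction. The filter and probe alternatives could not move a Reg ratio, and the value table repeats the software log ratio. The count of Reg genes that were higher was 2 with the software log ratio and with the deposited value table, which add Reg3d, and 0 with a 4-fold rule, which Reg3a does not reach. Over all genes, median centring gave 82 lower, the software log ratio and the value table each gave 487 higher and 350 lower, a 1.5-fold rule without a limit per array gave 775 and 616, and a 4-fold rule gave 31 and 18. The other settings gave 183 higher (median centring) to 320, and 139 to 201 lower. Reg1 changed sign between the arrays. Reg3d was at 0.62 with an offset of 10 and at 0.55 without background correction; signal over background limits it and Reg2, and the cause of the larger counts was not tested. No paired analysis was possible because each diet has 1 RNA sample and both arrays hold the same 2.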
